A study of Drosophila melanogaster with 2 samples.

Results

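The regions described here are 495 peaks of amos-eGFP chromatin immunoprecipitation that lie between genes and away from promoters. They are 8.50% of the 5823 peaks that the authors' list from pooled reads holds on the 6 main chromosome arms of Drosophila melanogaster. A peak was taken when its summit was over 500 bp from the transcription start site (TSS) of every protein-coding gene, outside every protein-coding gene body, and over 100 bp from any tRNA gene. The same list holds 4352 promoter peaks, with a summit at most 500 bp from such a TSS, and 516 intronic peaks away from promoters, the classes used for comparison. The study has 1 group, whole embryos aged 0 to 18 hours of the amos-GFP strain, which carries an amos-eGFP insertion, with 2 biological replicates. Immunoprecipitation was against GFP, although the antibody label reads amos. Embryos of all these ages and cell types were mixed, so a peak cannot be placed in a cell type. No control library and no second group was analysed here, and the depth behind each value is unknown because the deposited lists give no read counts.

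Amos is a proneural protein of the basic helix-loop-helix (bHLH) family, known for its part in making olfactory sense organs and some other sensory neurons. Proneural proteins of this family bind DNA as dimers with Daughterless at E-boxes (CANNTG). In flies, sequence between genes holds enhancers, the binding sites of insulator proteins, and genes for small and long non-coding RNAs. BEAF-32, CTCF, Su(Hw) and the GAGA factor are DNA-binding proteins known from insulators or chromatin boundaries, and DREF is a factor of housekeeping promoters whose element shares letters with the BEAF-32 site. A match to a word of sequence, as given below, shows neither that the factor was bound nor that it acted.

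The sequences at the strongest of these summits fell into a few kinds. The first set is shown because it holds 5 of the 10 peaks with the highest signal, each with the BEAF-32 word CGATAG within 50 bp of the summit. Each line is the plus strand of the RefSeq Release 6 genome, 101 bp centred on the summit and named by the gene with the nearest protein-coding TSS. Capitals mark CGATAG, the DREF element TATCGATA and the word ATGTA, on either strand. The window beside eyeless, ey, a gene for a transcription factor of eye development, holds CGATAG 2 times and TATCGATA once, and CTATCGATA there is 1 run in which both words overlap.
stnA, X:23007604-23007704: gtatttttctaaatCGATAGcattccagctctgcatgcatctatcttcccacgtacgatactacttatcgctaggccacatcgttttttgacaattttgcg
ey, 4:696861-696961: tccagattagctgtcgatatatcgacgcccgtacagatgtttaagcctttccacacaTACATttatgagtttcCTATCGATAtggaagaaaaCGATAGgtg
CG5273, X:758914-759014: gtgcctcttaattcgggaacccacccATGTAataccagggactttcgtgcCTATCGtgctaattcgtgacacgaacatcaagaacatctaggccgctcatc
CG15468, X:4956060-4956160: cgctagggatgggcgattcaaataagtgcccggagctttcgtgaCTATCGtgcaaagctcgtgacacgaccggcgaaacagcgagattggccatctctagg
Rcd2, 3L:20540874-20540974: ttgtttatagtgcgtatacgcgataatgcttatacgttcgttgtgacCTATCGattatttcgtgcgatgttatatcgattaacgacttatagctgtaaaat

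The second set holds the core of the CTCF site, AGNTGGCGC, in capitals together with ATGTA. The window beside Sox21a, a gene for a Sox transcription factor, belongs to the strongest of the 37 peaks with that core. The window beside eya, a gene for a transcriptional cofactor of eye and muscle development, belongs to the stronger of the 2 peaks whose nearest gene was on a mesoderm and muscle list.
Sox21a, 3L:14111573-14111673: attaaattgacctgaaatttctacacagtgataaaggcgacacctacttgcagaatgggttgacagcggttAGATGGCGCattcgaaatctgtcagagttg
eya, 2L:6527117-6527217: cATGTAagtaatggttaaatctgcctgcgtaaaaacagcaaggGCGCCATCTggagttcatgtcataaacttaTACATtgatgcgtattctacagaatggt

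The third set shows repeated copies of the word ATGTA, printed as TACAT where the copy is on the minus strand. It is shown because 19.6% of the 495 windows held 2 or more copies. The window beside CG42402 is a tandem repeat with 9 copies, the most in any of the 495 windows. The window beside numb, a gene for an asymmetrically inherited inhibitor of Notch signalling, holds 5. The window beside CG34435 holds 4, and that beside CG43338, which belongs to the one of the 495 nearest to amos itself, holds 3. The window beside CG6465 holds 2 and also, in capitals, the E-box hexamer CACGTG.
CG42402, 3R:4052927-4053027: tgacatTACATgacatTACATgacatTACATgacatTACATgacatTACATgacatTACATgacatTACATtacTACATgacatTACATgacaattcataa
numb, 2L:9464566-9464666: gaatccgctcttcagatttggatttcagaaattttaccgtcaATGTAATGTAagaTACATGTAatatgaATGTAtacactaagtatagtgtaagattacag
CG34435, X:5613141-5613241: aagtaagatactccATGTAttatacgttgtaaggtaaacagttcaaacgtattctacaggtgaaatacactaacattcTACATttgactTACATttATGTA
CG43338, 2L:18666087-18666187: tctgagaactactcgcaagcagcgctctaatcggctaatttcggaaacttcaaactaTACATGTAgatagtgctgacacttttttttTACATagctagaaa
CG6465, 3R:10675312-10675412: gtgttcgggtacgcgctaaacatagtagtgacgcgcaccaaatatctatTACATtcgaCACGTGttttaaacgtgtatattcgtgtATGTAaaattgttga

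Peak coordinates below are 1-based on dm6. The strongest peak, chrX:23007478-23007838, had a signal value of 1374.9 in the pooled list, the authors' own measure of peak strength, which is scaled separately in every list. This peak was in the list of both replicates, with 1022.6 in replicate 1 and 359.0 in replicate 2. Its summit was 3006 bp upstream of stnA, a gene of the synaptic vesicle cycle, and only 18 bp from the start of an antisense RNA gene, asRNA:CR45009. The peaks beside CG5273 (chrX:758804-759117, pooled signal 1061.3) and CG15468 (chrX:4955961-4956274, pooled signal 947.6) were also in both lists. CG5273 had 552.3 in replicate 1 and 511.7 in replicate 2, while CG15468 had 604.6 in replicate 1 and 333.7 in replicate 2.

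In the first set, 2 of the 5 peaks were present in 1 replicate alone. The peak beside ey (chr4:696748-697075, 778 bp upstream of its nearest TSS) had a pooled signal of 1351.9 and 920.3 in replicate 1, and no region of the replicate 2 ranked list overlapped it. That ranked list goes down to a signal of 2.00 and holds 99809 regions on the main arms. The peak beside Rcd2 (chr3L:20540782-20541050, 507 bp upstream) likewise had 807.4 in the pooled list and 729.2 in replicate 1, with no overlapping region in replicate 2. Neither is in the conservative list, the authors' stricter list from the same experiment. Of the 176 intergenic peaks above the median signal of the pooled list that were in the replicate 1 list, 22 (12.5%) had no region in the replicate 2 ranked list, against 26.4% of 106 intronic and 16.4% of 2381 promoter peaks.

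The remaining peaks of the top 10 differed in kind. The peak at chr3R:7474466-7475073, 608 bp wide, lay over the 7SK small nuclear RNA gene snRNA:7SKa, an RNA that holds the elongation factor P-TEFb inactive. It had a pooled signal of 1048.1, with 264.7 in replicate 1 and 732.5 in replicate 2. The peak beside CG6465 (chr3R:10675218-10675487) had a pooled signal of 748.9, with 412.8 in replicate 1 and 345.8 in replicate 2. The repeat beside CG42402 (chr3R:4052797-4053141), 24962 bp from the nearest TSS, had a pooled signal of 659.4 but 48.6 in replicate 1 and 605.2 in replicate 2. The peaks beside CG34460 (904.7, in an exon of lncRNA:CR43650) and CG7881 (755.2) were in both replicate lists and lie on arm 2R, and the CG7881 window holds CGATAG as well.

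Intergenic peaks ranked between promoter and intronic peaks in signal. Their pooled signal had a median of 94.5 and a range of 2.16 to 1374.9, against a median of 67.1 for intronic and 141.3 for promoter peaks. A signal above the median of the pooled list was found in 192 of the 495 (38.8%, 95% Wilson interval 34.6 to 43.2), against 22.1% of intronic peaks and 55.3% of promoter peaks, with 50% over the whole list by definition. Both differences passed the test (two-sided Fisher's exact tests, Benjamini-Hochberg (BH) adjusted over 14 tests, p = 1.37e-08 against intronic and 1.34e-11 against promoter peaks). A q value above 0.05, a weak call by the authors' own score, was given for 143 (28.9%, 25.1 to 33.0), against 48.4% of intronic peaks (exact adjusted p = 6.06e-10) and 18.2% of promoter peaks (exact adjusted p = 7.21e-08), with 23.6% over the list. In the replicate 1 list alone that order was not found between intergenic (4.31%) and promoter peaks (5.57%, exact adjusted p = 0.286), and in the replicate 2 list the difference from intronic peaks did not pass (14.4% against 19.6%, exact adjusted p = 0.142). Peaks are not independent replicates, so these intervals and p-values describe the lists and not the spread between embryos.

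**Figure D1:**
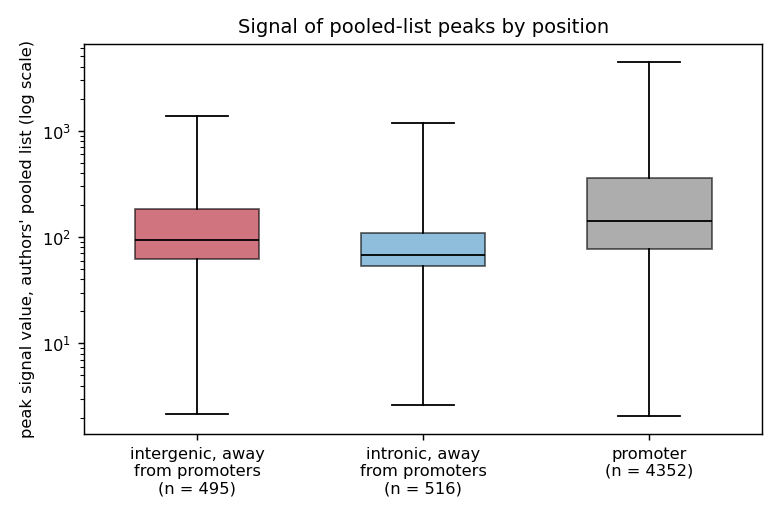
Signal value of each peak in the authors' pooled list (log scale) for intergenic, intronic and promoter peaks, with boxes from the first to the last quartile, a line at the median and whiskers to the lowest and highest peak. The medians are 94.5 for the 495 intergenic, 67.1 for the 516 intronic and 141.3 for the 4352 promoter peaks, and the 3 ranges overlap over most of their length.

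The next question was how many of these peaks each replicate found on its own. The replicate 1 list held 326 of them (65.9%, 61.6 to 69.9), against 90.4% of promoter peaks (exact adjusted p = 5.36e-42) and 61.8% of intronic peaks (exact adjusted p = 0.191), with 82.0% over the whole list. The replicate 2 list held 254 (51.3%, 46.9 to 55.7), against 47.8% of promoter peaks (exact adjusted p = 0.152) and 29.3% of intronic peaks (exact adjusted p = 5.89e-12), with 46.8% over the list. The difference from promoter peaks thus passed the test in the replicate 1 list, and that from intronic peaks in the replicate 2 list.

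Both lists held 158 of the 495 (31.9%, 28.0 to 36.2), against 44.7% of promoter peaks (exact adjusted p = 6.73e-08) and 16.1% of intronic peaks (exact adjusted p = 8.53e-09). Over the whole pooled list the share was 39.7%. Neither list held 73 (14.7%), against 6.53% of promoter peaks (exact adjusted p = 4.08e-09) and 25.0% of intronic peaks (exact adjusted p = 6.54e-05), with 10.9% over the list. The conservative list held 229 (46.3%), against 57.2% of promoter peaks (exact adjusted p = 5.36e-06) and 26.0% of intronic peaks (exact adjusted p = 6.47e-11), with 52.1% over the list.

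Support moved with signal. Of the 99 weakest peaks by pooled signal (2.16 to 58.4) none was in both replicate lists and 53 were in neither, whereas 85 of the 99 strongest (221.1 to 1374.9) were in both. Within equal groups of the whole pooled list by signal, a split added after values were seen, the classes lay closer in the share in both lists. Below 93.5, at most 7.02% of any class was in both lists. From 93.5 to 162.2, both lists held 31.0% of 113 intergenic, 31.2% of 80 intronic and 28.5% of 901 promoter peaks. Between 162.2 and 363.7 the shares were 78.0% of 109 intergenic, 65.5% of 55 intronic and 71.2% of 895 promoter peaks. Above 363.7 they were 87.9% of 33 intergenic, 83.3% of 18 intronic and 90.9% of 1064 promoter peaks. The shares in each single list stayed apart at lower signal. Below 63.1, the replicate 1 list held 29.4% of intergenic, 39.3% of intronic and 62.6% of promoter peaks. The replicate 2 list held 23.8%, 12.1% and 10.4% of them, in that order. From 93.5 to 162.2 the shares were 76.1%, 86.2% and 96.9% in replicate 1, and 53.1%, 42.5% and 31.3% in replicate 2.

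The replicates also weighed the classes differently. Of the 365 intergenic peaks with a region in both ranked lists, 195 (53.4%) had the higher value in replicate 2, and the median log2 ratio of replicate 2 to replicate 1 was 0.18. The ratio was -0.09 for 284 intronic peaks, -1.1 for 3193 promoter peaks and 2.37 for 154 peaks at tRNA genes. The scale of each replicate's values is its own, so only the order of these ratios is given, with no test. No region of the replicate 2 ranked list overlapped 108 of the 495 (21.8%), and none of the replicate 1 ranked list overlapped 22 (4.44%).

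The sequence words at the summits were compared with windows of the same 101 bp placed 1000 bp lower on the same arm. The words were chosen with earlier results of these data known, so their tests are not an independent check. Of 25 words searched on both strands, 3 were found in more summits than flanks and none in fewer at a BH adjusted p under 0.05 (two-sided exact McNemar tests). The CTCF core AGNTGGCGC was in 37 summit windows (7.47%, 5.47 to 10.1) and in 1 flank (0.202%, exact adjusted p = 7.09e-09), and in none of the windows 1000 bp higher. CGATAG was in 55 (11.1%, 8.64 to 14.2) against 3.23% of flanks (exact adjusted p = 2.22e-05). TATCGATA was in 28 (5.66%, 3.94 to 8.05) against 0.808% (exact adjusted p = 1.61e-04), and 18 of those 28 windows held CGATAG as well. Over all pooled summits these words were in 1.92%, 25.7% and 13.7% of windows, in that order.

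E-boxes, the words that a bHLH protein binds, did not pass that test. Any CANNTG was in 219 summit windows (44.2%, 39.9 to 48.6) against 39.6% of flanks (exact adjusted p = 0.340), with 40.4% over all pooled summits. Of the E-box hexamers, CACGTG came closest, in 15 summits (3.03%, 1.84 to 4.94) against 1.01% of flanks (exact adjusted p = 0.129), with 1.75% over all pooled summits. CAGCTG, a hexamer that many bHLH dimers bind, was in 3.64% of summits against 3.84% of flanks, and CAGATG in 5.86% against 5.45% (exact adjusted p = 1.00 for each). A further 2 words were near the threshold without passing it. The GAGA factor site GAGAGAG was in 4.04% of summits against 1.62% of flanks, and the Su(Hw) core TGCATANTT in 2.63% against 0.606% (exact adjusted p = 0.129 for each). Their shares over all pooled summits were 1.99% for GAGAGAG and 0.945% for the Su(Hw) core. Against flanks 1000 bp higher any CANNTG passed the test, at 44.2% of summits against 36.0% of flanks (exact adjusted p = 0.0490). Under the other alternatives tried it did not pass, and it was less frequent at summits in the replicate 1 list alone (39.7% against 43.1%, exact adjusted p = 0.614) and in windows of 100 bp to each side (64.8% against 67.5%, exact adjusted p = 0.595). Against flanks 1000 bp higher the Su(Hw) core also passed, at 2.63% against 0.404% (exact adjusted p = 0.0377). Against flanks 2000 bp lower CACGTG (exact adjusted p = 0.0377) and GAGAGAG (exact adjusted p = 0.00535) passed. CACGTG also passed in the conservative list (3.81% against 0.424%, exact adjusted p = 0.0391). With windows of 100 bp to each side, GAGAGAG (6.67% against 2.83%, exact adjusted p = 0.0413) and the Su(Hw) core (4.04% against 1.21%, exact adjusted p = 0.0468) passed. Of 10 alternatives, CACGTG did not pass under 8, and GAGAGAG and the Su(Hw) core under 7 each. In the replicate 1 list alone, GAGAGAG (4.31% against 1.08%) and the Su(Hw) core (3.45% against 0.647%) passed against flanks (exact adjusted p = 0.0221 for each). In the replicate 2 list alone neither passed, with GAGAGAG in 1.00% against 0.669% (exact adjusted p = 1.00) and the Su(Hw) core in 1.67% against 0 (exact adjusted p = 0.260).

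**Figure D2:**
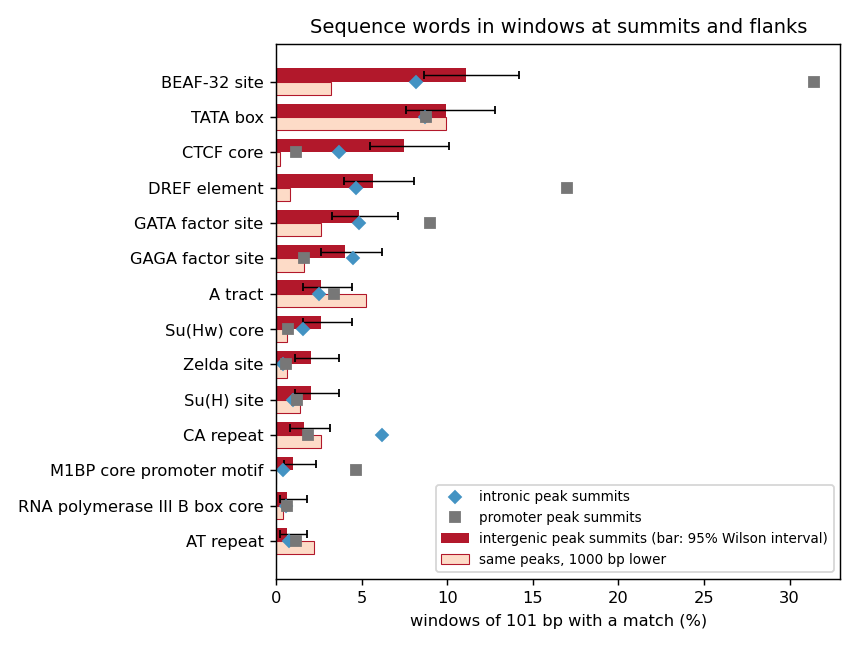
Share of 101 bp windows (%) with each word at intergenic summits (dark bars, 95% Wilson interval), 1000 bp lower beside the same peaks (pale bars), and at intronic and promoter summits (symbols), with E-boxes left out. The CTCF core is in 7.47% of intergenic summits against 0.202% of flanks, 3.68% of intronic and 1.13% of promoter summits, while the BEAF-32 site is in 11.1% of intergenic and 31.4% of promoter summits.

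The same words were then compared with the 4352 promoter and the 516 intronic summits. Against promoter peaks, 13 of the 25 words passed the test (two-sided Fisher's exact tests, BH adjusted over 25). The 8 that were more frequent at intergenic summits were the CTCF core (7.47% against 1.13%, exact adjusted p = 1.90e-14), the Su(Hw) core (2.63% against 0.689%, exact adjusted p = 7.19e-04), GAGAGAG (4.04% against 1.65%, exact adjusted p = 0.00324), the Zelda site CAGGTAG (2.02% against 0.551%, exact adjusted p = 0.00349) and 4 E-box hexamers. Those were CAAATG (11.9% against 6.66%, exact adjusted p = 2.83e-04), CACATG (7.27% against 3.38%, exact adjusted p = 3.11e-04), CACGTG (3.03% against 1.36%, exact adjusted p = 0.0207) and CATATG (3.23% against 1.68%, exact adjusted p = 0.0400). In the flanks of the intergenic peaks, 10.9% of windows held CAAATG and 5.25% held CACATG. With the replicate 2 list alone, GAGAGAG (1.00% against 0.763%, exact adjusted p = 0.861) and CACATG (6.02% against 3.29%, exact adjusted p = 0.106) did not pass, nor did CAAATG with the replicate 1 list alone (8.84% against 6.36%, exact adjusted p = 0.0879).

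Less frequent at intergenic than at promoter summits were CGATAG (11.1% against 31.4%, exact adjusted p = 6.82e-23), TATCGATA (5.66% against 17.0%, exact adjusted p = 5.52e-12), the M1BP core promoter word GGTCACACT (1.01% against 4.64%, exact adjusted p = 9.18e-05), CAGCTG (3.64% against 9.79%, exact adjusted p = 6.00e-06) and the GATA word GATAAG (4.85% against 8.98%, exact adjusted p = 0.00324). Against intronic peaks only a CA repeat passed, in 1.62% of intergenic and 6.20% of intronic summits (exact adjusted p = 0.00386). The CTCF core was in 7.47% of intergenic and 3.68% of intronic summits (exact adjusted p = 0.112). With the 66 summits in non-coding exons left out it was in 8.39% of intergenic summits (exact adjusted p = 0.0382), and in the replicate 1 list alone in 7.97% of intergenic against 3.20% of intronic summits (exact adjusted p = 0.0193). It did not pass in the replicate 2 list alone (8.36% against 3.92%, exact adjusted p = 0.327), in the conservative list (11.4% against 7.09%, exact adjusted p = 0.659) or at q values of 0.05 or less (9.66% against 6.02%, exact adjusted p = 0.520). The CA repeat passed in neither replicate list alone, with 3.45% against 7.24% in replicate 1 (exact adjusted p = 0.0974) and 0.334% against 2.45% in replicate 2 (exact adjusted p = 0.327).

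The CTCF-core peaks were mid-strength and well supported. Their pooled signal ran from 42.7 to 454.5 with a median of 132.0, and 20 of the 37 (54.1%) were in both replicate lists, against 31.9% of all 495. The strongest, beside Sox21a (chr3L:14111485-14111769), had a pooled signal of 454.5, with 107.1 in replicate 1 and 339.4 in replicate 2. The peak beside eya (chr2L:6527054-6527250) had 368.9 in the pooled list, with 120.1 in replicate 1 and 249.7 in replicate 2. Both were in both replicate lists, and their values were higher in replicate 2. Of the 34 with a region in both ranked lists, 21 had the higher value in replicate 2. Beside Abd-B, the Hox gene of the posterior abdomen, the core lay in a peak at chr3R:16919087-16919446, 14975 bp from its nearest TSS, with a pooled signal of 141.9, 63.0 in replicate 1 and 74.8 in replicate 2.

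Peaks with the BEAF-32 word reached higher values. The 55 with CGATAG had a pooled signal of 48.3 to 1374.9 and a median of 171.6, and 27 (49.1%) were in both lists. They lay at a median of 1455 bp from a TSS, against 3363 bp for the CTCF-core peaks and 2489 bp for all 495. Of the 46 with a region in both ranked lists, 18 (39.1%) had the higher value in replicate 2. For the 28 DREF-element peaks it was 6 of 21 (28.6%). Both shares were below the 53.4% of all intergenic peaks and above the 21.6% of the whole pooled list. Just 5 windows held both CGATAG and the CTCF core. CGATAG was most frequent in the peaks 500 to 1000 bp from a TSS (17.5% of 126) and those over 10000 bp away (15.2% of 79), and it was in 5.43% of the 129 from 2000 to 5000 bp.

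The words were also placed around the summits. In bins of 50 bp, the share of the 495 peaks with CGATAG was 6.87% in the bin at the summit, 4.65% and 3.43% in the bins centred 50 bp lower and higher, and 0.202% to 2.63% in every bin farther out. The share with the CTCF core was 4.24% at the summit, 2.22% and 2.83% in the bins centred 50 bp lower and higher, 2.22% and 1.21% at 100 bp, and 0 to 0.404% in every bin beyond. GAGAGAG was in 1.82% at the summit. Its bins centred at 150 bp lower to 50 bp higher held 1.62% to 2.42%, and its other bins 0.404% to 1.41%.

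**Figure D3:**
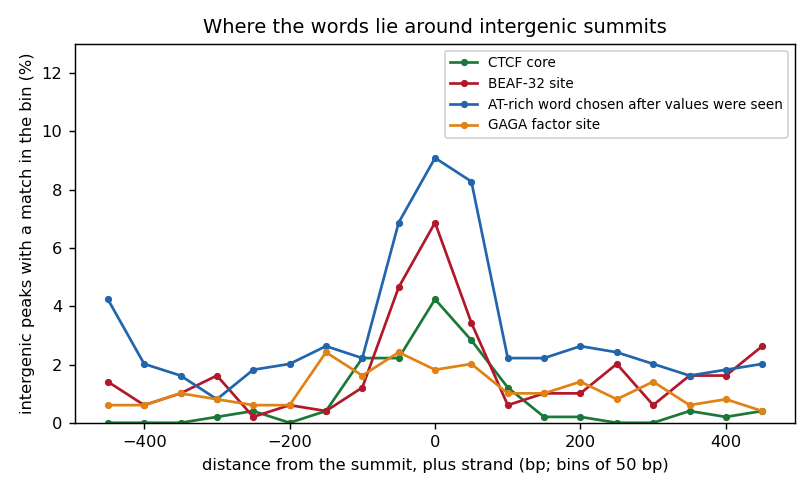
Share of the 495 intergenic peaks (%) with a word in each 50 bp bin, by distance from the summit in bp on the plus strand, with the AT-rich word ATGTANAA chosen after values were seen. CGATAG, the CTCF core and ATGTANAA are highest in the bin at the summit (6.87%, 4.24% and 9.09%), while the GAGA factor site, between 0.404% and 2.42% throughout, is highest in the bins centred 150 and 50 bp lower.

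A count of all 8-base words, made with values in view and so given without a test, showed a further element. The words most in excess at the summits over both flanks were ATTTTACA, in 49 summits and 8 lower and 5 higher flanks, and ATGTAAAA, in 48 summits and 6 lower and 7 higher flanks. The first overlaps the second on the opposite strand. ATGTAGAA, in 29 summits against 1 lower and 3 higher flanks, shares ATGTA with ATGTAAAA. ATGTANAA, a form that covers both, was in 83 of the 495 summits (16.8%) and in 27 of 990 flanks (2.73%). It was in 8.14% of intronic and 3.03% of promoter summits. Of summits in exons of protein-coding genes away from promoters, 7.35% held it. Median GC content was 42.6% at the summits, 43.6% in the lower and 41.6% in the higher flanks.

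ATGTA often came in several copies. Of the 495 summit windows, 97 (19.6%) held 2 or more copies on either strand and 51 held 3 or more, against 4.34% of 990 flanks with 2 or more. The share with 2 or more was 9.11% of intronic summits (4.46% of their flanks) and 3.70% of promoter summits (3.88% of their flanks), and 0 of 188 at tRNA genes. Of coding-gene exon summits away from promoters it was 7.72% (6.07% of their flanks). A factor that binds this word is not named here. Another word found the same way, ACTGCTTG, was in 21 summits (4.24%) and 4 of 990 flanks (0.404%). It was also in 2.33% of intronic summits (0.194% of their flanks) and 2.13% of summits at tRNA genes (0.266% of their flanks). Coding-gene exon summits held it in 1.47% and promoter summits in 0.758%.

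The ATGTA peaks were the AT-rich, replicate 2-leaning members of the 495. Their windows had a median GC content of 33.7%, and they had a median pooled signal of 172.9. Both replicate lists held 49 of the 97 (50.5%), the replicate 2 list held 75 and the replicate 1 list 65. Of the 77 with a region in both ranked lists, 61 (79.2%) had the higher value in replicate 2, with a median log2 ratio of replicate 2 to replicate 1 of 1.02, against 0.18 for all intergenic peaks. The peak beside numb (chr2L:9464519-9464720) had a pooled signal of 275.0, with 78.3 in replicate 1 and 198.3 in replicate 2. The peak beside CG34435 had 505.9 in the pooled list, with 147.5 in replicate 1 and 366.5 in replicate 2. An exception was the peak beside Tpr2, a gene for a chaperone-associated protein, which had 4 copies and 236.8 in replicate 1 against 153.9 in replicate 2. Base composition moved with this word, and its part in the difference between replicates was not tested.

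**Figure D4:**
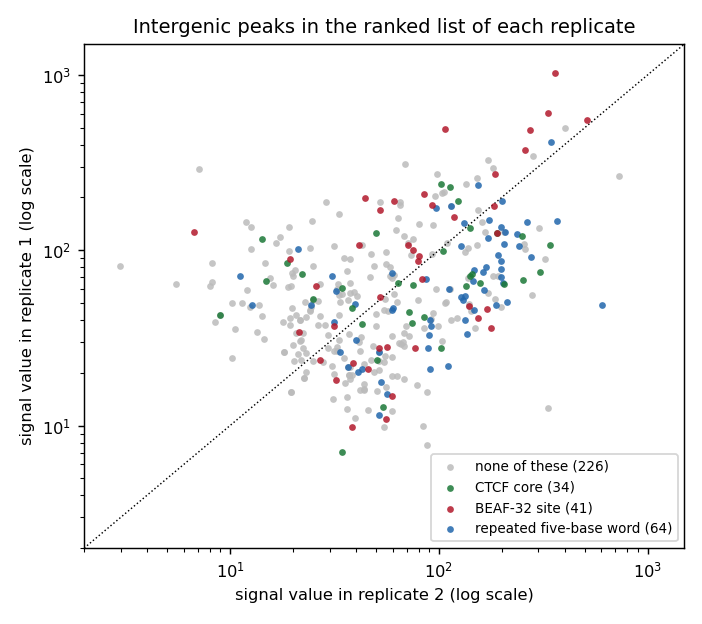
Signal values of the 365 intergenic peaks with a region in the ranked lists of both replicates, replicate 2 across and replicate 1 up (both log scales), with a dotted line at equal values and each peak coloured by the first of CTCF core, BEAF-32 site and repeated ATGTA that its window holds. Of all windows with 2 or more ATGTA, 61 of 77 lie on the replicate 2 side, and of those with the BEAF-32 site 18 of 46.

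Peaks with GAGAGAG lay mostly in the replicate 1 list alone. Of the 20 with this word, none was in both replicate lists, 17 were in the replicate 1 list alone, 2 in the replicate 2 list alone and 1 in neither. Their pooled signal ran from 52.0 to 264.2 with a median of 77.4, and their windows had a median GC content of 51.5%. The strongest, beside scyl, a growth-inhibiting gene of the TOR pathway, had a pooled signal of 264.2 and was in the replicate 1 list alone. By support, the word was in 10.1% of the 168 peaks in the replicate 1 list alone and in 0 of the 158 in both. Repeated ATGTA was in 31.0% of the 158 in both lists, 27.1% of the 96 in the replicate 2 list alone, 9.52% of the 168 in the replicate 1 list alone and 8.22% of the 73 in neither. The CTCF core was in 12.7% of those in both lists and 1.37% of those in neither.

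**Figure D5:**
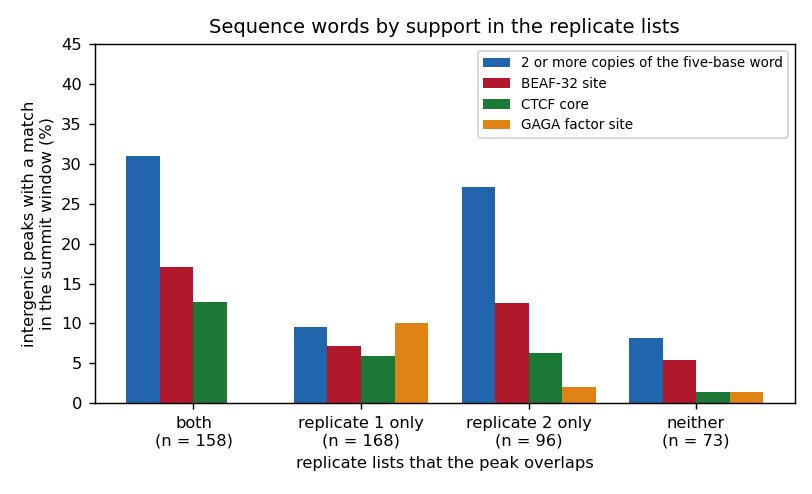
Share of intergenic peaks (%) whose summit window holds each word, by the replicate lists the peak overlaps, as 1 bar per word with no error drawn. Repeated ATGTA is in 31.0% of the peaks in both lists and 9.52% of those in the replicate 1 list alone, and the GAGA factor site is in 0 and 10.1% of them.

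The 336 peaks with neither CGATAG, the CTCF core nor ATGTANAA were weaker, with a median pooled signal of 81.1, and 82 (24.4%) were in both lists. The 219 with any E-box had a median of 93.6, near that of all 495, and 73 (33.3%) were in both lists. Across 5 groups of 99 peaks by signal the E-box share went 41.4%, 45.5%, 52.5%, 39.4% and 42.4%, lowest signal first. CGATAG over the same groups went 6.06%, 7.07%, 9.09%, 13.1% and 20.2%, and ATGTANAA went 5.05%, 8.08%, 16.2%, 28.3% and 26.3%.

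Although the rule keeps these peaks away from protein-coding genes, 66 of the 495 (13.3%) had their summit in an exon of a non-coding gene or an annotated transposable element, and 73 were within 500 bp of the start of a non-coding gene. The 66 were 38 long non-coding or antisense RNAs, 18 transposable elements, 8 small nuclear RNAs (snRNAs, mostly parts of the spliceosome) and 2 U3 small nucleolar RNAs. In both replicate lists were 7 of the 66, against 151 of the other 429. A q value above 0.05 was given for 28 of the 66 (42.4%), against 26.8% of the other 429.

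The snRNA peaks included several families. After 7SK, the strongest was snRNA:U6:96Ac (chr3R:24556983-24557359), with a pooled signal of 367.0 and 171.3 in replicate 1, and no region in replicate 2. The neighbouring snRNA:U6:96Ab (chr3R:24556626-24556857) had a pooled signal of 223.1, with 12.6 in replicate 1 and 334.5 in replicate 2. These adjacent copies of the U6 gene were thus high in different replicates. The summit windows of snRNA:U6:96Ab, snRNA:U1:95Ca, snRNA:U1:21D and snRNA:U2:34ABb occur up to 4 times on the main arms, so reads there may belong to another copy. No other summit window had an exact copy there.

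Transposable elements were a minor part. Of the 18 summits in them, 10 were in INE-1, a short element common in fly heterochromatin, the signal of all 18 ran from 47.6 to 243.6, and 1 was in both replicate lists. The strongest peaks in other non-coding exons were beside CG34460, CG15452 (chrX:20760594-20760854) and CG14074 (chr3L:18865509-18865718). The CG15452 peak, in lncRNA:CR43838, had a pooled signal of 419.4, with 256.7 in replicate 1 and 151.5 in replicate 2. The CG14074 peak, in asRNA:CR45912, had 383.5, with 311.0 in replicate 1 and 68.6 in replicate 2.

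The peaks were spread over the arms and at all distances from genes. The sequence open to the rule was 40.1 Mb, 30.0% of the arms, with 12.3 peaks per Mb, from 9.84 on X to 13.9 on 3R and 26.9 on the small chromosome 4, which held 8 peaks. Another of the 495 lay within 1000 bp of 101 (20.4%), 275 were alone in their 100 kb of sequence, and the fullest 100 kb held 6. The distance from summit to nearest protein-coding TSS ran from 501 to 65332 bp with a median of 2489, and 298 (60.2%) were upstream of that TSS. Many were close, with 126 (25.5%) at 500 to 1000 bp, of which 123 were upstream. The rule leaves out gene bodies, so a summit this close downstream was kept only where the gene ended within 1000 bp of that TSS. The upstream shares are thus partly fixed by the rule. In both lists were 42.1% of these 126, and 19.0% of the 79 peaks over 10000 bp away. The median signal was 110.9 in the nearest group and 80.9 in the farthest.

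At the distance limit of the rule, the nearest peaks inside it lay 501, 502 and 503 bp from a TSS, beside CG33958, CG6602 and CG17544, with pooled signals of 116.2, 76.5 and 96.6. The nearest outside gene bodies that missed it lay 491, 491 and 485 bp away, beside Obp56b, cnc and CG14323, with 119.8, 51.7 and 198.1. The 3 peaks farthest from any TSS had signals below the median of the 495. The one beside jing, 65332 bp away, had a pooled signal of 94.2 and was in the replicate 2 list alone, and those beside Cyp12e1 (41.4) and CG41099 (57.9) were in neither list.

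Peaks were also counted by nearest gene over lists of genes with a known role, beside the share of the whole pooled list. None of the 12 proneural bHLH genes, amos among them, was the gene nearest to any of the 495, and 3 peaks of the whole list (0.0515%) were nearest to one. The peak nearest to amos (chr2L:18596136-18596921, minus strand) was 69216 bp away, at chr2L:18666097-18666202 beside CG43338. It was in both replicate lists, with a pooled signal of 220.8, 77.0 in replicate 1 and 147.5 in replicate 2. A single peak (0.202%, against 0.447% of the whole list) had a gene of the Notch list nearest, E(spl)m7-HLH, a Notch target that represses neural fate, with a pooled signal of 43.7, a q value of 0.449 and a place in neither list. Neural precursor genes had 4 (0.808%, against 0.481% of the whole list), at numb, SoxN and Sox102F, of which 2 were in both lists.

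Patterning genes had peaks of moderate signal. The Hox list of 8 genes was nearest to 5 of the 495 (1.01%, against 0.292% of the whole pooled list), at Dfd, Scr and Abd-B. The strongest, in the Antennapedia complex beside Dfd (chr3R:6806751-6806877), had a pooled signal of 249.2, with 47.5 in replicate 1 and 198.3 in replicate 2. The 20 segmentation genes had 6 (1.21%, against 0.240% of the whole list), at ftz, hry, prd and slp2, and none of them was in both lists. The strongest of those, beside the pair-rule gene ftz (chr3R:6870854-6871213), had 97.1 in the pooled list and 79.8 in replicate 2, with no region in replicate 1. The 179 odorant, gustatory and ionotropic receptor genes had 6 (1.21%, against 0.172% of the whole list), of which 1 was in both lists, beside Gr98d (chr3R:27547452-27547592, pooled signal 229.6, 57.1 in replicate 1 and 172.4 in replicate 2). Beside the receptor gene Or67d lay 3, at 11858 to 52073 bp, and 2 of them held the CTCF core. Ribosomal protein genes, nearest to 62 peaks of the whole list (1.06%), had 1 of the 495 (0.202%), beside RpS15Aa. Histone genes had 1 (0.202%), which was also the only one in the whole list (0.0172%). That peak lay in a transposable element, 11802 bp from its nearest TSS. It had a q value of 0.0807 and was in the replicate 2 list alone. The gene lists were chosen with earlier results of these data known, and the nearest gene is a label of position.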

How the data were processed

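Chromatin immunoprecipitation was sequenced in 2 biological replicates of 1 group. Peaks of each replicate and of pooled reads passed an irreproducible discovery rate procedure on dm6, per the names of the lists the authors deposited. Neither an aligner nor a peak caller is given in the sources used here. Signal is the authors' value for a peak, scaled separately in every list, and was used to describe and rank peaks within a list. The deposited q value is given by the authors as −log10. Depth is unknown.

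Summits were classed with Ensembl release 115. Lists were compared by overlaps of 1 bp or more, and the value of a replicate is the strongest overlapping region of its ranked list. Sequence words, on both strands, came from the RefSeq Release 6 genome, in windows of 50 bp to each side. Shares were compared by two-sided Fisher's exact tests and exact McNemar tests (scipy 1.17.1, statsmodels 0.14.6). Both were tried on simulated data, with larger differences than those of the words here and with summit and flank drawn independently. That trial does not show how the tests behave near the threshold. Intervals are 95% Wilson intervals and cover counting of peaks only. Peaks named are the 10 strongest, the 5 strongest in non-coding exons, the 3 farthest from a TSS, the one nearest to amos, the strongest of the densest 100 kb and of each gene list. Others were chosen after values were seen. The peaks, lists and words were chosen with earlier results of these data known. Alternatives were the conservative list, a q value of 0.05 or less, a TSS distance of 1000 bp, other windows, flanks and overlaps, each replicate's list alone, and non-coding genes left out, where genes for tRNAs and transposable elements did not count as a start.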

Additional observations from a re-analysis of the deposited data

Results flagged for a closer look

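Intergenic peaks by the same rule that the replicate lists hold and the pooled list does not were used in no comparison above. The replicate 1 list held 139 of them, 30.0% of its 464 intergenic peaks, with signals up to 206.1. The replicate 2 list held 51, 17.1% of its 299, with signals up to 143.0. There was no control library to set them against.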

How the results depend on the processing

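Under 11 alternatives, 262 values were recomputed, of which 216 were classed as the same, 17 as weaker, 17 as stronger and 12 as turned in direction. A share was the same when it kept its direction and its side of the threshold, and weaker or stronger when it lost or gained the call. A count of words passing was weaker or stronger when it fell or rose beyond a set factor, and smaller changes were classed as the same. In the conservative list the shares against intronic peaks no longer passed for both replicate lists (67.8% against 59.6%, exact adjusted p = 0.162) or signal above the median (30.5% against 22.7%, exact adjusted p = 0.162), and q values above 0.05 were given for 6.36% against 5.52% of promoter peaks (exact adjusted p = 0.605). That list holds fewer peaks. The count of words passing against flanks, 3 in the report, was 5 in the conservative list, 5 with windows of 100 bp to each side, 6 with flanks 1000 bp higher, 5 with flanks 2000 bp lower, and 4 to 5 with each replicate's list alone. The CTCF core, CGATAG and TATCGATA passed under all 10 alternatives run for flanks. Against intronic peaks the count, 1 in the report, was 0 in the conservative list, 0 at q values of 0.05 or less, 2 without non-coding exons and 0 to 1 with single lists. Against promoter peaks it was 13, and 5 to 10 with single lists. The share with q above 0.05 was 4.31% to 14.4% with single lists. In the replicate 1 list it was 4.31% against 5.57% of promoter peaks, which turned the direction (exact adjusted p = 0.286), and in the replicate 2 list it was 14.4% against 19.6% of intronic peaks (exact adjusted p = 0.142). The share above the median was 35.1% to 35.8% with single lists. The causes of these changes were not tested. The other turns of direction were in single words that passed neither in the report nor under that alternative. Any CANNTG was in 39.7% of summits against 43.1% of flanks in the replicate 1 list (40.1% against 38.8% in the replicate 2 list) and 64.8% against 67.5% with windows of 100 bp to each side. Against intronic peaks, CACATG was in 5.60% against 6.90% in the replicate 1 list (6.02% against 4.90% in the replicate 2 list) and 11.3% against 13.2% with the wider windows. TATCGATA was in 7.36% against 9.80% in the replicate 2 list (5.82% against 2.86% in the replicate 1 list) and 7.63% against 7.80% in the conservative list. GAGAGAG was in 1.69% against 1.42% in the conservative list, 3.41% against 3.01% at q values of 0.05 or less, and 4.61% against 4.46% with a TSS distance of 1000 bp. CACACACA, against promoter peaks, was in 3.45% against 1.92% in the replicate 1 list (0.334% against 0.859% in the replicate 2 list) and 1.86% against 1.84% without non-coding exons. A 50% reciprocal overlap was tried on the share in both replicate lists alone, and both of its calls held. No paired analysis was possible because there is 1 group. Without read counts, depth limits the values in a way that cannot be stated.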
